A study of Bombyx mori with 2 samples.

Results

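The compact spliced loci of the silkworm wing buds were 1912 short stretches of scaffold that carried an intron in both wing buds and spanned at most 3000 bases from the first exon base to the last. They were found by joining the assembled transcripts of the fore- and hindwing buds wherever exons of the same strand had 1 or more bases in common, and by keeping the joined loci that held a multi-exon transcript in each library and whose whole span met that limit. Of 25992 loci in all, 18473 were assembled in both libraries and 10423 of these were spliced in both. The compact loci made up 18.3% of the spliced loci, and the 8511 longer spliced loci served as the comparison. No measured level entered the choice as a threshold. Loci not assembled with an intron in both wing buds were left out, however, and assembly depends on level. The limit on span bounds the length and the number of introns a member can hold. Differences in those quantities from longer loci are therefore a description of the class and not a finding about it.

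The 2 libraries were made from wing buds of *Bombyx mori* larvae of the Daizo strain in the fourth instar, with forewing buds taken from the second and hindwing buds from the third thoracic segment. The labels give no treatment, and each group was 1 library from 80 pooled buds, so there were no biological replicates, the values describe these libraries and carry no p-value. RNA was copied from random hexamers in a kit that does not record strand, and the strand of a locus was therefore the one its splice sites gave. The depth, estimated from the deposited bounds, was 43528000 fragments (hindwing) and 37194000 fragments (forewing). Because the buds are bulk tissue, a lower level can stand for fewer cells or for less RNA per cell, and these cannot be told apart.

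Introns are cut from the primary transcript by the spliceosome, which has to recognise both ends of the intron and a branch point, and insect genomes hold many introns close to the shortest length this machinery accepts. Compact genes in animals include many that every cell uses in quantity, such as the genes for ribosomal proteins. In moths and other insects, several families of short genes, such as those for cuticle and eggshell proteins, lie in tandem arrays. This is background only, since the assemblies number their transcripts and nothing used here links a locus to a named gene. A table of 18210 silkworm genes shared 0 identifiers with the assemblies, and no genome of these scaffolds was used, so loci are given by scaffold, start and end as deposited (1-based, genome build not given in the sources used here), with no sequence.

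The compact loci were mostly exon. Their median span was 1879 bases (quartiles 1248.5 to 2434), and their exons together covered a median of 903.5 bases. Exons made up 57.7% of the span of the median compact locus and 30.6% of that of the median longer locus. In their fullest form, 881 loci had 2 exons, 604 had 3, 302 had 4, 96 had 5, 20 had 6 and 9 had 7. A lone intron in both libraries was the most common structure, seen in 836 compact loci (43.7%, 95% Wilson interval 41.5 to 46.0%). The members are thus chiefly genes or gene fragments of 2 or 3 exons. By strand, 907 lay on the plus strand, 997 on the minus strand and 8 held transcripts of differing strand.

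Introns of the compact loci were shorter than those of longer loci, which the span limit in part fixes. Both libraries together showed 3719 distinct introns in the compact loci, with a median length of 397 bases (quartiles 158 to 694), against 781 bases for the 56057 introns of longer loci. Among the 3304 introns that both libraries assembled, 426 (12.9%) measured 70 to 89 bases, a share of 4.64% in longer loci. Introns of at most 150 bases numbered 785 (23.8%, 22.3 to 25.2%), against 9.38% in longer loci. The span limit removes long introns by construction, so the share was also taken among introns of at most 1000 bases alone. There it was 26.9% in compact and 15.2% in longer loci, and even this is not free of the limit, since several introns must together stay within the 3000 bases. Counted per locus in place of per intron the classes were close, with at least 1 such short intron in 625 compact loci (32.7%, 30.6 to 34.8%) and in 31.5% of the longer loci, which have more introns each. Only introns of at most 150 bases, among those both libraries assembled, were held by 271 compact loci (14.2%) and by 1.22% of longer loci. This share too is bound by the span limit and by intron number. A lone intron in both libraries was seen in 43.7% of compact and 7.81% of longer loci, and this share was not compared at equal intron number. Intron lengths were: at 1 distinct intron the medians were 453 bases in compact and 1424 in longer loci. At 2 distinct introns they were 450.5 and 1055.5 bases. The span limit bounds these lengths too.

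**Figure D1:**
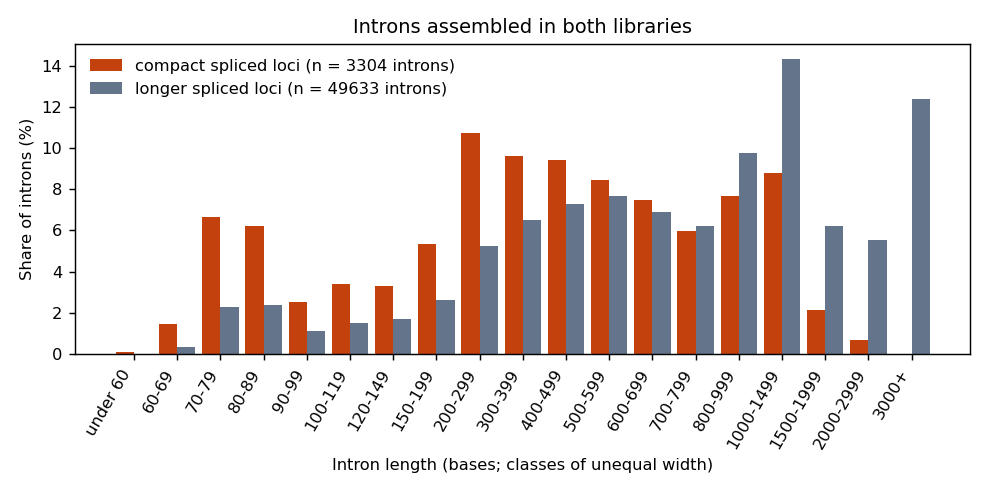
Share of introns (%) in each length class (bases, classes of unequal width), for introns assembled in both libraries, in the compact loci (3304 introns, brown) and the longer spliced loci (49633 introns, grey). The compact loci have a narrow peak at 70 to 89 bases (12.9% of introns) and a broad shoulder from 200 to 700 bases, and no intron of 3000 bases or more, which their span limit does not allow.

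The extremes of the class show how little room a spliced locus took in these assemblies. The shortest member, nscaf2987:126817-127059 on the minus strand, spanned 243 bases with a single intron of 118 bases. It held 0.98 FPM (fragments per 1000000 fragments of the library) in the hindwing bud and 1.10 in the forewing bud, and rested on about 42.5 and 41.0 fragments. The shortest intron assembled in both libraries had 50 bases and occurred in 2 members, one of them nscaf1898:344778-346517 on the plus strand, at 0.60 per kb in the hindwing and 0.79 in the forewing bud. A minus-strand member starts at the same base and spans the whole of this plus-strand locus. As the kit did not record strand, fragments where their exons overlap could not be divided, and the plus-strand level may include fragments of the other member. Whether the assigned strand and this shortest intron are correct was not tested. At the other end, the longest intron of a member measured 2555 bases and left little of nscaf2865:5229101-5231953 for its 2 exons. That locus held 1.48 FPM in the hindwing bud and 1.64 in the forewing bud, so none of these extremes was abundant. With 7 exons in both libraries, a number shared by 6 members, nscaf1071:1313195-1316107 on the plus strand was the one with most exons taken by the naming rule. Its 6 shared introns measured 77, 651, 322, 81, 125 and 830 bases in order of position. Its level was 59.3 FPM in the hindwing bud and 64.4 in the forewing bud, and the deposited intervals overlapped.

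In compact loci, position within the transcript separated first introns from later ones. Exons and introns were measured on the multi-exon hindwing transcript with most FPM, where its chain of introns was also found in the forewing bud. In the 1658 compact loci where this held, first exons had a median of 200 bases, internal exons 152 and last exons 208. Internal exons of longer loci were alike at 155 bases, while their first exons had 279 and their last exons 786 bases. In the 752 compact loci with more than 1 intron in that chain, the first intron had a median of 326 bases and later introns 464. The first intron was longer than the median of the later ones in 287 of those loci (38.2%, 34.8 to 41.7%). In longer loci the medians were 850 and 762 bases. Locus by locus the split was near even there, with a longer first intron in 51.4% (49.97 to 52.8%). First and last exons depend on where an assembly stops, and whether they reach the true ends of the transcripts was not tested.

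The splicing of the compact loci was found again from one wing bud to the other about as often as that of longer loci. In compact loci 95.7% of hindwing introns recurred in the forewing bud and 92.6% of forewing introns in the hindwing bud, against 94.8% and 93.1% in longer loci. Every intron chain was identical in both libraries for 1509 compact loci (78.9%) and 48.4% of longer loci. This difference followed intron number. At 2 distinct introns the shares were 69.7% and 68.8%, at 3 they were 61.1% and 56.5%, and at 4 they were 47.5% and 54.4%. A single assembled form in each library was seen for 1601 compact loci (83.7%), and 16 members shared no intron between the libraries. An intron of one transcript lay wholly inside an exon of another transcript of the locus in 301 compact loci (15.7%, 14.2 to 17.4%) and in 20.9% of longer loci.

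The compact loci ranged widely in level, with an excess both of very abundant and of scarce loci. Levels are given per kilobase, as the sum over the transcripts of a locus of the midpoint of the deposited confidence interval (on the FPKM scale, fragments per 1000 bases of transcript and 1000000 mapped fragments), because only a value per length can be compared between loci. The median compact locus had a level of 10.6 per kb in the hindwing bud (quartiles 3.83 to 29.6) and 10.9 in the forewing bud (4.21 to 29.99). The median longer locus had 13.2 and 12.8 per kb. This order of medians is not stable. With the deposited FPKM in place of the midpoint the compact loci had the higher median in both libraries, 14.4 and 14.9 against 13.9 and 13.3. With the most abundant transcript alone they had 9.29 and 9.83 against 9.91 and 9.72, and with loci whose transcripts all reach 300 bases 13.0 and 13.1 against 13.1 and 12.8, so the forewing order turned in each case.

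The tails of the distribution held where the median did not. At least 500 per kb was reached by 47 compact loci in the hindwing bud (2.46%, 1.85 to 3.25%) and 50 in the forewing bud (2.62%, 1.99 to 3.43%), against 1.12% and 1.16% of longer loci. A level below 2 per kb was found for 13.0% of compact loci in the hindwing bud and 10.8% in the forewing bud, against 6.60% and 6.89%. Under the 5 other ways of measuring or choosing loci that were tried, the share of compact loci at 500 or more was above that of longer loci in both libraries, and so was the share below 2. The intervals on shares cover the number of loci only, and loci are not replicates. Among the 100 spliced loci with the highest level per kb, 41 were compact in the hindwing bud and 39 in the forewing bud, where 18.3% of all spliced loci were compact. By FPM, which does not divide by length and so favours long transcripts, 28 and 25 of the top 100 were compact. Further down this order the compact loci were under their share of all spliced loci, with 12.6% and 12.2% of the top 500 and 9.8% of the top 1000 in each library. Per locus they held a median of 7.34 FPM in the hindwing and 7.596 in the forewing bud, against 31.0 and 30.4 in longer loci. At least 100 FPM was reached by 6.69% and 6.96% of compact loci and by 17.3% and 17.2% of longer ones. All compact loci together held 11.4% of hindwing and 11.7% of forewing FPM, and the longer loci 73.8% and 74.2%.

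**Figure D2:**
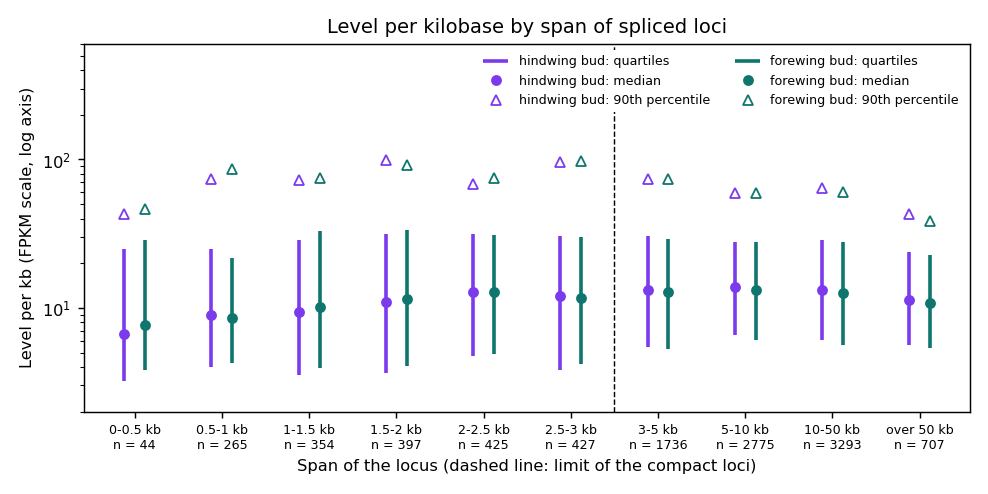
Level per kilobase (FPKM scale, log axis) by span of the spliced locus (kb, number of loci under each class) in the hindwing (violet) and forewing bud (green). Dots are medians, bars the quartiles and triangles the 90th percentiles; the dashed line is the limit of the compact loci. Medians rise from 6.67 per kb (hindwing) in the shortest class to 12.9 at 2 to 2.5 kb, and the 90th percentiles are lower again in the longest loci.

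Within the class, level per kb by interval midpoints went with span and exon number and little with intron length. The hindwing median was 6.67 per kb for the 44 loci up to 500 bases, 8.93 for the 265 up to 1000 bases, 9.31 for the 354 up to 1500 bases, and between 10.9 and 12.9 for the classes above. Sorted by longest shared intron the medians were close, 10.7 per kb in the hindwing bud for the 271 loci with introns of at most 150 bases only and 9.52 for the 373 with an intron over 1000 bases. Loci with more exons had higher medians, from 9.27 per kb in the hindwing bud for those with 2 exons to 13.6 for the 96 with 5. In the forewing bud these were 9.08 and 13.5, but loci with 3 exons (12.9) stood above those with 4 (12.1). The orders by span, intron length and exon number were not recomputed with deposited FPKM. Short transcripts were less well measured. Of the members' transcripts, 307 of 2496 in the hindwing and 271 of 2411 in the forewing library had fewer than 300 bases. Deposited FPKM lay within its own bounds for 30.9% and 28.8% of these, against 69.3% and 69.4% of the members' other transcripts. The shortest member is a case in point, with a deposited FPKM of 296 in the hindwing bud and an interval of 4.90 to 11.1. At the limit itself, the 78 loci within 100 bases under it had medians of 8.97 and 8.94 per kb in the hind- and forewing buds, and the 101 loci of 3003 to 3100 bases had 14.9 and 14.8.

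The 10 members named for abundance were high in both wing buds. The naming rule took the 10 with the highest mean level per kb among loci whose transcripts all reach 300 bases, and they had 2864 to 4874 per kb in the hindwing bud and 1715 to 6090 in the forewing bud. They spanned 1143 to 2819 bases, had 3 to 5 exons, and for 7 of them every intron chain was the same in both libraries. First by mean level was nscaf2847:7271137-7273882 on the minus strand, with introns of 2095 and 93 bases and 1973 FPM in the hindwing and 2424 in the forewing bud. The highest hindwing level per kb of the 10 belonged to nscaf2930:2341497-2343378, also on the minus strand, at 4874 per kb in the hindwing and 1715 in the forewing bud. Its fragments differed less, 1579 and 1002 FPM, because its transcript had 324 bases in the hindwing and 584 in the forewing assembly. By fragments, nscaf2888:822119-824937 was the most abundant of the 10, a minus-strand locus of 5 exons with introns of 606, 407, 244 and 502 bases, at 3338 FPM in the hindwing and 3239 in the forewing bud. Of these 10, 0 were called different, with log2 ratios of FPM from -0.30 to 0.70. The minimum of 300 bases left out loci such as nscaf1898:8637908-8640632. Its mean of 4148 per kb was above all but the first of the 10, and its log2 ratio was 2.25.

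The other 7 of these abundant loci had 2 to 4 shared introns of 76 to 1667 bases. On nscaf2883:1237207-1238820 the level was 1789 FPM in the hindwing and 1945 in the forewing bud, with introns of 698 and 186 bases. The locus nscaf2136:111152-113593 had introns of 1456 and 138 bases and 1941 and 1962 FPM. At nscaf2767:3686414-3688390 the introns measured 450, 813 and 76 bases, and the levels were 1888 and 2100 FPM. These are all minus-strand loci with slightly more FPM in the forewing bud. On the plus strand, nscaf2655:1004109-1006651 had introns of 128, 415, 678 and 269 bases and 2497 and 2737 FPM. The other plus-strand locus, nscaf2993:6747840-6750594, had introns of 204 and 1667 bases and 2353 and 2283 FPM. The shortest of the 10, nscaf2986:2838050-2839192, had introns of 293 and 355 bases and 1554 and 959 FPM, the largest ratio among them at a log2 of 0.70. The last, nscaf2511:2712253-2713650, had introns of 589 and 174 bases and 1679 and 1726 FPM. The shortest shared intron of each of the 10 measured 76 to 293 bases. How often this holds among other compact loci with more than 1 intron was not counted.

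Few compact loci differed between the wing buds, and the share that did was near that of all spliced loci. Loci without a multi-exon transcript in each library were outside both counts. The ratio was taken on FPM + 1, for loci with at least 1 FPM in a library, and a locus was called different at 2-fold. Of the 1764 compact loci that met the minimum, 74 were called (4.20%, 3.35 to 5.23%), beside 3.58% of all 10179 spliced loci that met it and 3.45% of the longer ones. More were higher in the forewing bud (47) than in the hindwing bud (27), where the background of all spliced loci was 1.83% in the forewing and 1.75% in the hindwing direction. In longer loci it was 1.65% and 1.79%. A share this close to the background is not a result about the compact loci, and its order against the background turned with the setting. It was 2.82% against 3.22% where all transcripts reached 300 bases and 4.56% against 5.58% with the most abundant transcript alone. The larger number in the forewing direction was found under all 13 alternatives, at 57.4 to 73.5% of the calls.

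**Figure D3:**
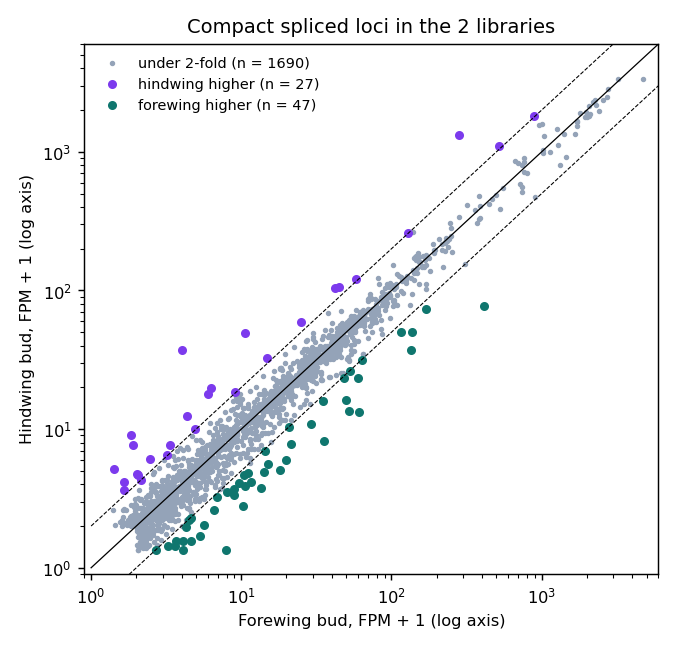
Hindwing against forewing FPM + 1 (both log axes) of the 1764 compact loci with at least 1 FPM in a library, 1 point per locus; the solid line marks equal levels and the dashed lines 2-fold. Most points lie between the dashed lines (1690), with 27 loci above (violet) and 47 at or under the lower line (green), and the spread is widest at low levels.

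The typical compact locus was at almost the same level in both buds. Its median difference was 1.15-fold in either direction, against 1.12-fold in longer loci, and the median log2 ratio was -0.02 against 0.02. The 74 called loci all had FPM intervals that did not overlap, and so had 517 compact loci in all (29.3%), near the background of 32.0% of spliced loci. The intervals hold only counting and assignment error, PCR copies were not marked, and no replicate error is known, so an interval that stands apart does not show a difference between the wing buds as such. With 1 library each, wing bud and library cannot be told apart. Calls were most frequent among the 143 compact loci of at least 100 FPM (12, or 8.39%) and least among the 625 under 5 FPM (18, or 2.88%), and in longer loci these shares were 4.50% and 1.89%. The 1 FPM added to both values lowers the ratios of scarce loci, so shares at different levels are not alike in what they count. With a stricter call (2-fold both by FPM and by level per kb, intervals apart, at least 5 FPM in a library) 39 of 1139 compact loci remained different, 13 higher in the hindwing and 26 in the forewing bud. That was 3.42%, beside 1.81% of all spliced loci at that minimum.

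The 4 loci named for their difference were unlike in structure and in how well they were measured. They were ranked by the smaller of the ratios by FPM and by level per kb. In the hindwing direction nscaf1898:8918808-8921097 came first, a plus-strand locus of 4 exons with the same introns of 238, 278 and 756 bases in both libraries. It held 35.9 FPM (interval 33.5 to 38.4) in the hindwing bud and 3.05 (2.29 to 3.82) in the forewing bud, a log2 ratio of 3.19 on the FPM + 1 scale. This was the largest ratio of any compact locus, and it rested on about 1565 and 114 fragments. The locus ranked after it, nscaf1898:8637908-8640632, lies on the minus strand of the same scaffold and was far more abundant, with 1328 FPM (1294 to 1362) in the hindwing and 279 (265 to 293) in the forewing bud and a log2 ratio of 2.25. Its transcripts had only 189 and 220 bases, with 3 exons in the hindwing and 2 in the forewing assembly around a shared intron of 2442 bases.

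In the forewing direction the largest ratio was that of nscaf2868:1227930-1229645 on the plus strand, at 0.33 FPM (0.11 to 0.55) in the hindwing and 6.87 (4.33 to 9.41) in the forewing bud, a log2 ratio of -2.56. This value rests on about 14.5 hindwing fragments, and the most abundant transcripts had 145 and 164 bases. Forewing FPM was summed over more than 1 transcript. Exons of the joined locus covered 1570 of its 1716 bases, although its shared intron measured 1552 bases. A further transcript therefore lay at least in part within that intron. With the most abundant transcript alone the log2 ratio was -1.87. Deposited FPKM, summed over the locus, were nearly equal at 24.5 and 25.8. On the deposited FPKM there was thus no 2-fold difference. The next under the naming rule, nscaf1071:346865-348108, had a log2 ratio of -2.12, rested on about 313 and 1283 fragments and belongs to a group of neighbours. It is next by the smaller of its FPM and per-kb ratios, not by FPM alone.

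On nscaf1071, 4 consecutive compact loci of 2 exons were each at least 2-fold higher in the forewing bud, a group singled out after its values were seen. The first 3 are on the minus strand with gaps of 5531 and 4831 bases and make up a run as defined for the grouping on scaffolds, the only one of 50 with every locus called. The first, nscaf1071:346865-348108 with an intron of 865 bases, held 7.18 FPM (6.13 to 8.22) in the hindwing and 34.5 (31.6 to 37.4) in the forewing bud. The next, nscaf1071:353640-354402 with an intron of 404 bases, held 12.2 (10.9 to 13.5) and 59.6 (55.4 to 63.7). The forewing bud had over 4-fold more FPM at both, but by deposited FPKM the ratios were smaller, with 33.5 against 94.0 at the first and 82.5 against 166 at the next, which is just under 2-fold on the FPKM + 1 scale. At nscaf1071:359234-359998, with an intron of 392 bases, the levels were 30.3 FPM (27.6 to 32.9) and 62.5 (58.2 to 66.8). After a gap of 26651 bases came nscaf1071:386650-387599 on the plus strand, with an intron of 552 bases and 49.5 (46.2 to 52.9) and 115 FPM (109 to 121). The log2 ratios were -2.12, -2.19, -1.02 and -1.20 in this order, and the intervals of the wing buds did not overlap at any of them. By level per kb the third was below 2-fold, at 90.6 against 172. Whether these neighbours are copies of a gene was not tested, as no sequence was used, and reads shared between near-identical copies could not be followed.

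**Figure D4:**
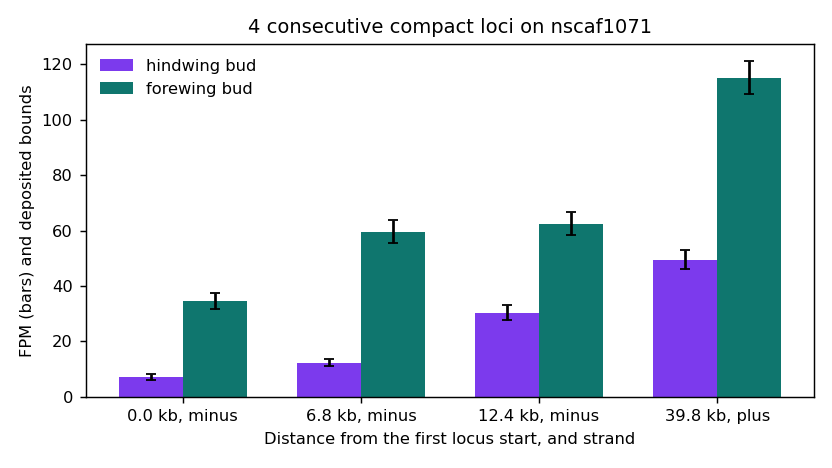
Level in FPM (bars from 0, whiskers the deposited bounds) of 4 consecutive compact loci on nscaf1071 in the hindwing (violet) and forewing bud (green), by distance from the start of the first locus. The forewing bar is the higher in every pair, from 34.5 against 7.18 FPM at the first to 115 against 49.5 FPM at the last.

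A compact neighbour was more frequent after a compact locus than after a longer one, though most neighbours of compact loci were longer. The spliced locus that followed on the scaffold was compact for 375 of the 1660 compact loci that had one (22.6%, 20.6 to 24.7%), and for 1291 of 8167 longer loci (15.8%, 15.0 to 16.6%). On scaffolds with at least 50 spliced loci the shares were 21.4% and 15.3%, and with any locus counted as the neighbour they were 14.2% and 8.38%. Pairs of compact loci also shared a strand more often, in 246 of 375 cases (65.6%, 60.7 to 70.2%), against 54.2% where 1 of the pair was compact and 48.5% of pairs of longer loci. Their gaps were shorter, with a median of 1911 bases against 2732 and 3368.

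The shares of compact neighbours and of common strands were lower among pairs at higher levels. A minimum in FPM by itself removes more compact than longer loci, since compact loci have the lower median FPM. Among pairs in which both loci reached 5 FPM in both libraries, the next locus was compact after 15.2% of compact loci (12.9 to 17.9%) and after 11.8% of longer loci (11.0 to 12.7%). In those pairs the 2 compact loci shared a strand in 57 of 121 cases (47.1%, 38.4 to 56.0%), near the 43.1% of pairs of longer loci. As 246 of all 375 compact pairs shared a strand, the share was higher among the remaining pairs, which were not counted apart. In those, a locus was under 5 FPM in a library. Pairs of longer loci moved the same way, with 48.5% on a common strand in all and 43.1% at 5 FPM. A common strand at low levels was thus not particular to compact loci. Separate short genes and pieces of a longer gene that the assembly left unjoined cannot be told apart here. Scaffold size, taken as the number of spliced loci on the scaffold, also moved with the class. No locus can be longer than its scaffold, so short scaffolds favour compact loci by construction. Some members begin at the first base of their scaffold, and whether these are cut pieces of longer genes was not tested. A compact locus was the only spliced locus on its scaffold in 185 cases (9.68%), against 1.46% of longer loci, and 59.9% of the 309 scaffolds with a single spliced locus held a compact one. The compact share was 25.4% on scaffolds with 2 to 9 spliced loci, 17.8% with 10 to 49 and 16.3% with 50 or more. Across the 146 scaffolds with at least 10 spliced loci it ranged from 0 to 50% with a median of 16.3%.

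Runs, defined as at least 3 compact loci in a row among the spliced loci with gaps of at most 10000 bases, numbered 50 and held 175 compact loci (9.15%) on 36 scaffolds. Of these runs 36 had 3 loci, 10 had 4 and 4 had at least 5, and 30 lay wholly on a single strand. Loci in runs were scarcer, with medians of 6.31 per kb in the hindwing and 8.21 in the forewing bud, against 11.2 and 11.4 for other compact loci. In 8 runs every locus reached 5 FPM in both libraries. Calls were more frequent in runs, 14 of 159 loci (8.81%) with 11 higher in the forewing bud, than outside them, 60 of 1605 (3.74%), and the background was the same 3.58%. They were spread thinly, as 38 runs had no called locus, 11 had 1, and the run on nscaf1071 had all 3.

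The largest runs held scarce loci. The longest had 9 loci, all on the minus strand, in nscaf2575:421426-448297, with gaps of 102 to 7976 bases. Its loci had 0.33 to 2.14 FPM in the hindwing and 0.62 to 2.30 in the forewing bud, 7 were higher in the forewing bud, and at every locus the intervals of the wing buds overlapped. A run of 7 minus-strand loci followed in nscaf1516:4717-30606, at 0.87 to 5.08 FPM in the hindwing and 0.60 to 2.77 in the forewing bud. A single locus of this run, at 5.08 against 2.77 FPM, had intervals apart. The run in nscaf2943:2107208-2118627 had 6 loci, 5 of them on the minus strand and the first, on the plus strand, overlapping its neighbour. That overlapping pair went opposite ways, 4.07 against 6.57 FPM on the plus strand and 6.01 against 2.75 on the minus strand. As the kit did not mark strand, the fragments where the pair overlaps could not be divided by strand, and 5 of the 6 loci were higher in the forewing bud with 3 intervals apart and 0 called.

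**Figure D5:**
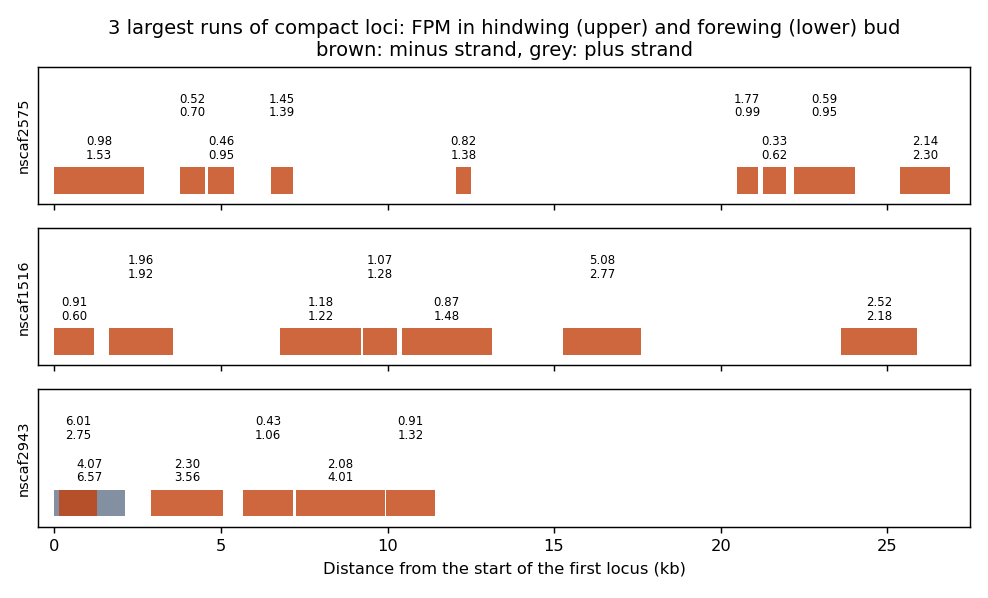
Compact loci (boxes to scale, brown for the minus and grey for the plus strand) in the 3 largest runs, by distance from the start of the first locus (kb), with the FPM of each locus in the hindwing bud (upper number) and forewing bud (lower number). The numbers stay between 0.33 and 6.57 FPM, and no locus of the 3 runs differs 2-fold between the wing buds on the FPM + 1 scale.

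The next runs by size were more uneven. The region nscaf2938:303495-318450 held 5 minus-strand loci, all of them higher in the forewing bud, at 0.33 to 3.70 FPM in the hindwing and 0.98 to 6.02 in the forewing bud. There 1 was called and 3 had intervals apart. A denser run in nscaf2823:1891939-1899340 held 4 minus-strand loci with gaps of 84 to 555 bases, at 2.01 to 6.10 FPM and 2.22 to 6.21 FPM, and here the 1 called locus was higher in the hindwing bud.

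Some compact loci lay within or across other loci. The whole locus was inside an intron of another spliced locus in 53 cases (2.77%), 24 on the same strand as that locus and 29 on the other strand or without a common one. Exons of 103 compact loci (5.39%, 4.46 to 6.49%) overlapped exons of a spliced locus of the other strand, and these had medians of 24.5 per kb in the hindwing and 27.3 in the forewing bud. Their fragments cannot be told apart by strand in these libraries, so their levels may include fragments of the opposite locus.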

How the data were processed

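RNA of 80 pooled wing buds per library was sequenced in 1 hindwing and 1 forewing library, amplified with 11 PCR cycles. Per the study's methods, reads were trimmed, mapped with TopHat and assembled with Cufflinks; Cufflinks 2.1.1 and Cuffdiff are the tools named in the submitters' notes. No source used here names the genome build. The deposited assemblies give for each transcript its exons and, as the authors' assembler wrote them for each library alone, the FPKM, its lower and upper confidence bounds and the coverage. The deposited score column ranks the transcripts of a gene and was not used, and neither was coverage. The Cuffdiff comparison was not used.

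Transcripts were joined into loci as described with the results, and introns were the gaps between consecutive exons. Deposited FPKM often lay outside its own bounds for short transcripts, so the level per kb was the sum of interval midpoints, and FPM was each midpoint times the transcript's exon length divided by 1000, summed over the locus. Depth was the number of fragments that made bounds whole (96.5% of hindwing and 96.1% of forewing bounds). Ratios were log2((hindwing FPM + 1)/(forewing FPM + 1)) with a minimum of 1 FPM in a library and no rescaling, so low values are understated. The median compact locus rested on 319 hindwing and 283 forewing fragments and the least covered on 13.5 and 12.0.

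Named were the 10 loci of highest mean level per kb whose transcripts reach 300 bases, the 2 loci per direction with the largest difference by the smaller of the FPM and per-kb ratios, at 5 FPM or more with intervals apart, and the extremes of span, intron length and exon number; the runs and the nscaf1071 group were described beside these, the latter after its values were seen. The members and the measures were chosen with earlier results of these data known. No gene list or marker list was used, since no locus has a gene name, and the tissue labels could not be checked against marker genes. Wilson intervals are at 95%. The code was tested on simulated data. The tools were matplotlib 3.10.9, scipy 1.17.1, pandas 2.3.3 and numpy 2.4.6 under Python 3.11.15.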

Additional observations from a re-analysis of the deposited data

How the results depend on the processing

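Of 96 recomputed values of the main counts and medians, 35 stayed within 1.5 times (counts) or within the stated spread and 61 moved. These are counts, shares and medians above 0, which cannot change sign. The order of compact and longer loci by median level per kb did turn, under deposited FPKM in both libraries and in the forewing bud when transcripts had to reach 300 bases or when just the most abundant one was counted. No paired analysis was possible because the wing buds had 1 library each. Paired values are for the hindwing and then the forewing bud.

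With a span limit of 2000 bases there were 1060 compact loci, the median intron was 291.5 bases (768 in longer loci), the median FPM 4.97 and 5.26 (longer 28.8 and 28.5), the level per kb 9.44 and 9.75, the share with 1 intron 56.1%, the next neighbour compact in 14.7% (8.38% after longer loci), and there were 49 calls and 12 runs. With 4000 bases the median intron was 453 bases (798), the median FPM 10.3 and 10.1 (32.8 and 32.6), the share with 1 intron 36.3%, the next neighbour compact in 30.8% (23.6%), and there were 114 runs. Counting introns of both libraries only, the longer loci had a median of 769 bases. Joining on either strand gave longer loci 14.2 and 13.5 per kb.

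With the most abundant transcript alone, compact loci had 9.29 and 9.83 per kb and longer loci 9.91 and 9.72, with a longer-locus median of 24.6 and 25.0 FPM. With the same intron chains in both libraries, compact loci had 9.09 and 9.05 FPM and 11.9 and 11.7 per kb, and longer loci 36.3 and 35.7 FPM and 14.4 and 14.6 per kb. With all transcripts of at least 300 bases, compact loci had 11.4 and 11.5 FPM and 13.0 and 13.1 per kb, longer loci 32.2 and 31.8 FPM, and there were 41 calls. Deposited FPKM gave 14.4 and 14.9 against 13.9 and 13.3 per kb, and 235 calls (12.5%, beside 12.4% of all spliced loci). FPM per kb of exon bases, added after the data were seen, gave 8.19 and 8.66 against 9.22 and 9.21.

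The number of 2-fold loci was 137 with a pseudocount of 0.1, 29 with a pseudocount of 5, and 171 by the sum of midpoints (9.12%, beside 10.04% of all spliced loci). The next neighbour was compact in 14.2% when any locus was counted, and, for pairs at 5 FPM or more in both libraries, chosen after the data were seen, in 15.2%, with 8 runs left. For the 7 called loci given by position, 37 of 42 alternative ratios stayed at least 2-fold in the same direction. The cause of these shifts was not tested.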
